A study of Mus musculus with 48 samples.

Results

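The B and plasma cell genes described here are 33 mouse genes of the antibody-forming lineage, chosen as a named list with no threshold on a measured value, though with earlier results of these data known. Their list holds 34 names, because Faim3 is an older symbol of Fcmr. Of the 33 genes, 27 had a row in each of the 3 deposited tables of read counts, out of 25913 gene identifiers, and the other genes (Pou2f2, Ighm, Ighd, Ighg2b, Igha and Igkc) were not analysed here. A filter on low counts kept all 27 for testing in white adipose tissue (WAT), 23 in brown adipose tissue (BAT) and 13 in liver, out of 15828, 13845 and 12761 genes tested. In BAT the filter left out Cr2, Fcer2a, Tnfrsf17 and Vpreb3, so the counts of changed genes below cover those tested and not all members. A score was computed for each library as the mean log2 CPM (CPM, the count relative to a library total scaled by TMM, with a prior count of 2) of the members tested in that tissue.

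The tissue came from female mice of the hybrid strain C3B6F1, and 48 libraries were made, 22 from WAT, 20 from BAT and 6 from liver. The diets are named by their order: AL stands for unrestricted food, DR for dietary restriction to 60% of what AL mice ate, ALDR for a switch onto restriction, and DRAL for a switch off it. At 5 months there were AL and ALDR groups of WAT and of BAT, with 3 libraries in each. At 26 months the AL and DR groups of both fat tissues held 3 libraries each and the ALDR groups 5, while DRAL held 5 in WAT and 3 in BAT. The liver samples were of old switched mice only, in 2 groups (ALDR, DRAL) of 3. Restriction began at 12 weeks of age, so it had lasted 2 months in the 5-month ALDR mice and 24 months in the 26-month DR mice. The old ALDR and DRAL mice were switched at 24 months of age, and restriction was introduced in steps of 10% per week. Restricted mice were fed once daily, and all mice were killed shortly before that feed. The protocol gives 27 months as the age at death of the old mice, which the labels call 26 months. The BAT titles write ADRL where the descriptions give the switch onto restriction. The labels name the fat as epididymal although the mice were female, so the dissected depot, and whether lymph nodes lay in it, are not known. WAT and liver RNA was depleted of ribosomal RNA and read in pairs of 100 bp, whereas BAT libraries were made from polyadenylated RNA with single reads of 150 bp, so levels were not compared between tissues.

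B cells recognise antigen through a membrane immunoglobulin that signals through CD79A and CD79B, whose cytoplasmic tails recruit kinases. PAX5, SPIB and the co-activator encoded by Pou2af1 maintain the B-cell state, and PRDM1 and IRF4 drive the change to plasma cells, which fold and secrete antibody with the help of the J chain, MZB1 and DERL3. BAFF and APRIL, cytokines of the tumour necrosis factor family, keep these cells alive through the receptors encoded by Tnfrsf13c, Tnfrsf13b and Tnfrsf17. Adipose tissue contains scattered B cells and lymphoid clusters, and lymph nodes lie within several fat depots. IRF4 is also made in adipocytes, where fasting is known to raise it, and EBF3 is found in stromal cells, so neither gene is specific to B cells.

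The members lie on many chromosomes. In the GENCODE M21 annotation of the mouse build GRCm38, which is also the build in the submitters' processing notes, Cd79a lies on chromosome 7 from 24897381 to 24902197 (forward strand), Cd22 on chromosome 7 from 30865402 to 30880342 (reverse strand) and Ms4a1 on chromosome 19 from 11249675 to 11266241 (reverse strand). Pax5 lies on chromosome 4 from 44524757 to 44710487 (reverse strand), Jchain on chromosome 5 from 88519809 to 88527891 (reverse strand) and Irf4 on chromosome 13 from 30749226 to 30766976 (forward strand). RefSeq promoter sequences of build GRCm38.p6, from 250 bases before to 50 bases after the start site, were at hand for 21 of the 27 genes, 23 promoters in all. A pair of short motifs bound by B-cell factors was searched on both strands, and the promoters that hold them are shown for their letters alone. A link between the motifs and the levels of the members was not tested. The octamer ATGCAAAT or its reverse ATTTGCAT, the site of the OCT factors that the Pou2af1 protein works with, was found in the promoter of Vpreb3 and in no other member's, and in 1.74% of all 32851 promoters. The palindrome TCCCNNGGGA, a form of the site of early B-cell factors such as EBF3, was found in the promoter of Cd22 and in no other member's, and in 0.904% of all promoters. These matches describe the letters of these windows only. The start sites are those of the RefSeq promoters. Both windows lie inside the GENCODE bounds of their genes, Cd22 as given above and Vpreb3 on chromosome 10 from 75943057 to 75949657. Capitals mark the match, 45 bases before the start site in Vpreb3 and 49 bases before it in Cd22, counted to the first matched base.
Vpreb3, chr10:75948050-75948349, forward strand: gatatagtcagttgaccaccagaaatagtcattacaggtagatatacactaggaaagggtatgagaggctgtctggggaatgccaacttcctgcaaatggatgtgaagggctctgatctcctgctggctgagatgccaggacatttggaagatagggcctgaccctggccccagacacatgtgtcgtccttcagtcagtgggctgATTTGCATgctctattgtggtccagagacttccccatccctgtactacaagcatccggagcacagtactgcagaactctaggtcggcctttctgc
Cd22, chr7:30878979-30879278, reverse strand: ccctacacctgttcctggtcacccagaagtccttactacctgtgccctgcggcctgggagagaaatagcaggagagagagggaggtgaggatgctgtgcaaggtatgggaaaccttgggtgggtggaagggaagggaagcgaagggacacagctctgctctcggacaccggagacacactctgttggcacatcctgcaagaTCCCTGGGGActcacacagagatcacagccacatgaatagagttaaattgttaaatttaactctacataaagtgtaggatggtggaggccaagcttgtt

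Library totals ranged from 12247161 to 22500246 counts in WAT, from 6075585 to 19349912 in BAT and from 14678489 to 22893099 in liver, so a level below 3 counts stood for at most 0.255, 0.489 and 0.202 CPM. Adipocyte genes (5 listed) summed to 12300 to 27700 CPM in the WAT libraries, brown adipocyte genes (4 listed) to 3020 to 8460 CPM in BAT, and hepatocyte genes (4 listed) to 46300 to 71700 CPM in liver. Skeletal muscle genes (6 listed) reached 3850 and 12500 CPM in replicates 2 and 3 of WAT DR at 26 months and 2720 CPM in replicate 2 of WAT ALDR at 26 months. In BAT they reached 4250 CPM in AL at 5 months, and 4330 CPM in ALDR and 3150 CPM in DR at 26 months. One BAT library, replicate 5 of ALDR at 26 months, carried 4120 CPM of 7 listed epithelial and milk genes. A pair of BAT libraries, replicate 2 of AL and replicate 1 of DRAL at 26 months, stood apart in the members themselves, and some BAT results are given below with and without them. The labels name no batch, and nothing in them ties libraries of different tissues to one mouse.

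B and plasma cell genes were higher in old than in young WAT. With the AL and DR groups averaged at 26 months and the AL and ALDR groups averaged at 5 months, 25 of 27 members rose with age and none fell (edgeR quasi-likelihood test, Benjamini-Hochberg adjusted p under 0.05), with a median log2 fold change of 2.63 over the members against 0.01 over all genes. This averaged contrast was added after the data were seen and is built from the same libraries as the separate age comparisons below. Differences are given as log2 fold changes ± SE, with the p adjusted over all genes tested in the tissue. The contrast called 19.3% of all genes, and 8.76% of all genes as higher at 26 months. Members enter such a count by passing the filter on low counts, and 5 of the 27 passed it only through the old libraries: Fcer2a, Fcmr, Pax5, Tnfrsf13c and Vpreb3 had at most 13 counts in any young library. Of the 22 members that pass the same filter in the young libraries alone, a count added after the data were seen, 20 rose and none fell, against 7.6% of all genes so filtered called as higher, and their median log2 fold change was 2.13 against -0.02. The exceptions were Irf4 (log2 -0.57 ± 0.28, adjusted p = 0.15) and Ebf3 (log2 0.09 ± 0.13, adjusted p = 0.662). Over those 22 members the score ranged from 2.49 to 4.69 in the 16 libraries at 26 months and from 1.17 to 2.17 in the 6 libraries at 5 months, without overlap. Over all 27 it ranged from 1.92 to 4.34 and from 0.70 to 1.52, a description since 5 of them entered through the old libraries. Its mean over all 27 was 3.54 ± 0.60 in AL, 3.06 ± 1.12 in DR, 3.50 ± 0.70 in ALDR and 3.42 ± 0.97 in DRAL at 26 months, against 1.23 ± 0.46 in AL and 1.09 ± 0.10 in ALDR at 5 months (SD, n = 3, 3, 5, 5, 3 and 3). Adipocyte genes ran the other way: the 5 listed summed to 16500 to 22700 CPM in AL at 5 months and 12300 to 15000 CPM in AL at 26 months, and to 24800 to 27700 CPM in young ALDR and 17000 to 21400 CPM in old DR, without overlap in either pair. In the averaged contrast 3 of the 5 fell and none rose, where 19.3% of all genes were called, and their part in the members' values was not tested. In bulk tissue, more cells of a type and more RNA per cell cannot be told apart.

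**Figure D1:**
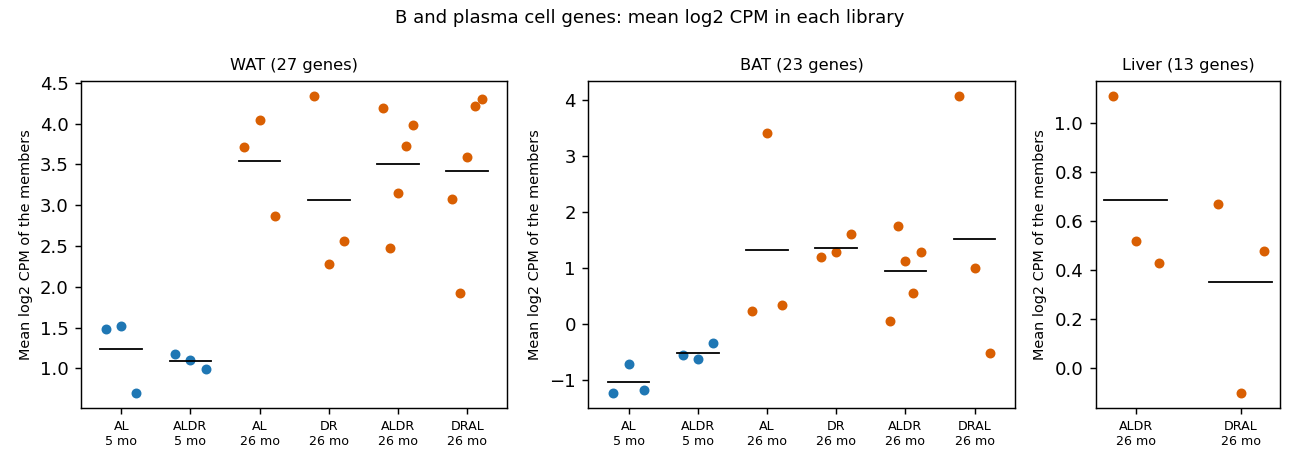
Mean log2 CPM of the members tested, for each library (points) and group (bars at the group mean), in WAT (27 genes), BAT (23 genes) and liver (13 genes), with 5-month libraries in blue and 26-month libraries in orange. All 16 old WAT libraries lie above all 6 young ones, and 2 old BAT libraries lie far above the rest, at 3.40 and 4.07.

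The signalling chains of the antigen receptor rose. Cd79a was at 1.09, 1.63 and 0.561 CPM in AL and 1.96, 2.38 and 2.28 CPM in ALDR at 5 months. At 26 months it was at 19.7, 21.2 and 6.59 CPM in AL, 34.3, 4.58 and 7.66 CPM in DR, 25.1, 4.99, 9.85, 16 and 25.4 CPM in ALDR and 16.6, 1.7, 12.6, 25.2 and 25.9 CPM in DRAL. One old library, replicate 2 of DRAL, lay inside the young range, and the other old libraries lay above it. The averaged age difference was 3.32 ± 0.63 (adjusted p = 0.00402), and that of its partner Cd79b was 2.63 ± 0.55 (adjusted p = 0.00559).

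Surface receptors moved the same way, with all 8 tested members of this role past the threshold in the averaged contrast, where 8.76% of all genes were called as higher. Fcer2a and Fcmr passed the filter only through the old libraries, and the log2 fold changes of the other 6 ran from 1.22 to 3.69. Ms4a1, which encodes the B-cell membrane protein CD20, was at 4.35, 2.84 and 2.46 CPM in AL and 2.38, 3.77 and 5.08 CPM in ALDR at 5 months. At 26 months Ms4a1 was at 47, 40.7 and 19.9 CPM in AL, 61.3, 7.28 and 21.1 CPM in DR, 59.6, 13.1, 19.4, 32.8 and 54.2 CPM in ALDR and 38.6, 4.31, 34.4, 62.3 and 68.9 CPM in DRAL. Again only replicate 2 of DRAL fell within the young range, and the averaged difference was 3.22 ± 0.61 (adjusted p = 0.00369). Cd22, an inhibitory co-receptor that binds sialic acid, was at 6.17, 6.83 and 2.74 CPM in AL and 2.13, 2.24 and 1.91 CPM in ALDR at 5 months. It was at 33, 53.9 and 20.0 CPM in AL, 70.2, 10.3 and 14.6 CPM in DR, 47.4, 10.7, 21.7, 32.6 and 91.5 CPM in ALDR and 16.9, 3.83, 31.5, 41.7 and 51.6 CPM in DRAL at 26 months, with the same library alone in the young range. Its averaged difference was 3.33 ± 0.65 (adjusted p = 0.00421), and that of Fcmr, the receptor for the Fc part of IgM, was 3.90 ± 0.65 (adjusted p = 0.002). Fcer2a, the low-affinity IgE receptor CD23, and Cr2, the complement receptor CD21, which mark mature and follicular B cells, differed by 4.49 ± 0.99 (adjusted p = 0.00701) and 3.69 ± 0.95 (adjusted p = 0.0144). The differences of Cd72, an inhibitory co-receptor, and of Fcrla, an intracellular relative of Fc receptors, were 1.86 ± 0.53 (adjusted p = 0.0215) and 2.34 ± 0.59 (adjusted p = 0.0128). The smallest difference in this role was that of Cd37, a tetraspanin of leukocytes, at 1.22 ± 0.27 (adjusted p = 0.0078). Blk, a kinase of the B-cell receptor pathway, was at 1.92, 1.33 and 0.491 and 1.28, 1.61 and 2.28 CPM at 5 months (AL, then ALDR) and at 2.71 to 30.1 CPM in the old libraries, with no overlap between ages and an averaged difference of 3.23 ± 0.52 (adjusted p = 0.0017). The adaptor Bank1 rose by 1.39 ± 0.40 (adjusted p = 0.0242).

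Of 6 transcription factors and co-activators tested, 4 rose with age, against 8.76% of all genes, and of the 5 that pass the filter in the young libraries alone, 3 did, against 7.6%. Pax5, the factor that commits cells to the B lineage, was at 0.57, 0.423 and 0.351 CPM in AL and 0.17, 0.279 and 0.221 CPM in ALDR at 5 months. At 26 months it was at 7.24, 12.3 and 2.7 CPM in AL, 12.2, 1.93 and 7.54 CPM in DR, 13.3, 1.87, 6.28, 8.34 and 14.9 CPM in ALDR and 3.87, 0.691, 7.78, 10.0 and 11.4 CPM in DRAL. No old library overlapped the young ones, and the averaged difference was 4.48 ± 0.71 (adjusted p = 0.00149). Pou2af1 and Spib rose by 3.26 ± 0.59 (adjusted p = 0.00304) and 3.26 ± 0.59 (adjusted p = 0.00321). Ebf3 was at 25.9, 26.7 and 29.3 CPM in AL and 30.0, 28.7 and 21.7 CPM in ALDR at 5 months, and at 21.4, 29.1 and 25.7 CPM in AL, 30.5, 37.5 and 29.8 CPM in DR, 28.9, 29.9, 29, 33.9 and 30.4 CPM in ALDR and 31, 30.4, 35.6, 17.5 and 30.9 CPM in DRAL at 26 months, so the ages overlapped. Irf4 and Prdm1 also differed between diets and are described below, and Prdm1 rose with age by 1.04 ± 0.28 (adjusted p = 0.0161).

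All 3 genes of antibody assembly and secretion, which also pass the filter in the young libraries alone, rose too, against 8.76% of all genes. Jchain, which joins IgM and IgA molecules, was at 27.6, 67.3 and 9.26 CPM in AL and 62.5, 33.3 and 6.18 CPM in ALDR at 5 months. At 26 months Jchain was at 105, 117 and 119 CPM in AL, 209, 96.4 and 44.3 CPM in DR, 186, 86.3, 82.7, 164 and 175 CPM in ALDR and 71.7, 106, 156, 463 and 310 CPM in DRAL. Replicate 3 of DR was the single old library inside the young range, and replicate 4 of DRAL was the highest. The averaged difference was 1.75 ± 0.55 (adjusted p = 0.0347). Mzb1, a chaperone of the endoplasmic reticulum that assists antibody secretion, was at 0.829, 1.45 and 0 CPM in AL and 0.681, 0.978 and 0.589 CPM in ALDR at 5 months. It was at 9.16, 11.3 and 5.14 CPM in AL, 14.4, 2.8 and 2.84 CPM in DR, 19.3, 5.05, 7.07, 10.3 and 19.2 CPM in ALDR and 4.91, 3.08, 10.9, 23.9 and 21.9 CPM in DRAL at 26 months, above the young libraries without exception. Its averaged difference was 3.29 ± 0.66 (adjusted p = 0.00474). Derl3, which works in the disposal of misfolded proteins, was at 0.518, 0.725 and 0.351 and 1.28, 1.4 and 0.736 CPM at 5 months (AL, then ALDR). At 26 months Derl3 was at 1.58, 2.1 and 1.77 CPM in AL, 4.35, 1.58 and 0.865 CPM in DR, 3.55, 1.48, 2.55, 3.09 and 3.26 CPM in ALDR and 1.12, 1.17, 1.74, 4.07 and 3.6 CPM in DRAL, overlapping the young ALDR libraries in DR and DRAL, with an averaged difference of 1.37 ± 0.40 (adjusted p = 0.0262). The constant regions with a row, Ighg2c of an IgG heavy chain and Iglc2 of a lambda light chain, rose by 1.93 ± 0.61 (adjusted p = 0.0338) and 2.47 ± 0.85 (adjusted p = 0.0477). Both have near-identical relatives, and how the counting shared reads among them is not given in the sources used here, so their values are uncertain.

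All 3 receptors for BAFF and APRIL rose, against 8.76% of all genes, though Tnfrsf13c passed the filter only through the old libraries. Tnfrsf13c, the BAFF receptor of mature B cells, was at 0 to 0.589 CPM in the young libraries and at 0.904 to 10.3 CPM in the old ones, without overlap, and the averaged difference was 4.06 ± 0.70 (adjusted p = 0.00247). Tnfrsf13b, which encodes TACI and binds both ligands, rose by 1.54 ± 0.29 (adjusted p = 0.0035), and Tnfrsf17, which encodes the plasma-cell receptor BCMA, by 0.99 ± 0.25 (adjusted p = 0.0128). Vpreb3, a protein of immature B cells, had no reads in any of the 6 young libraries and 0 to 1.40 CPM in the old ones, 3 of which also had none, and its fitted value is no bound on the change. All 16 old libraries exceeded all 6 young ones for Pou2af1, Blk and Mzb1 among the 22 members that pass the filter in the young libraries alone, against 0.181% of all genes so filtered. The same held for Pax5 and Tnfrsf13c, which passed through the old libraries, so that 5 of all 27 tested members (background 0.24%) is only a description.

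**Figure D2:**
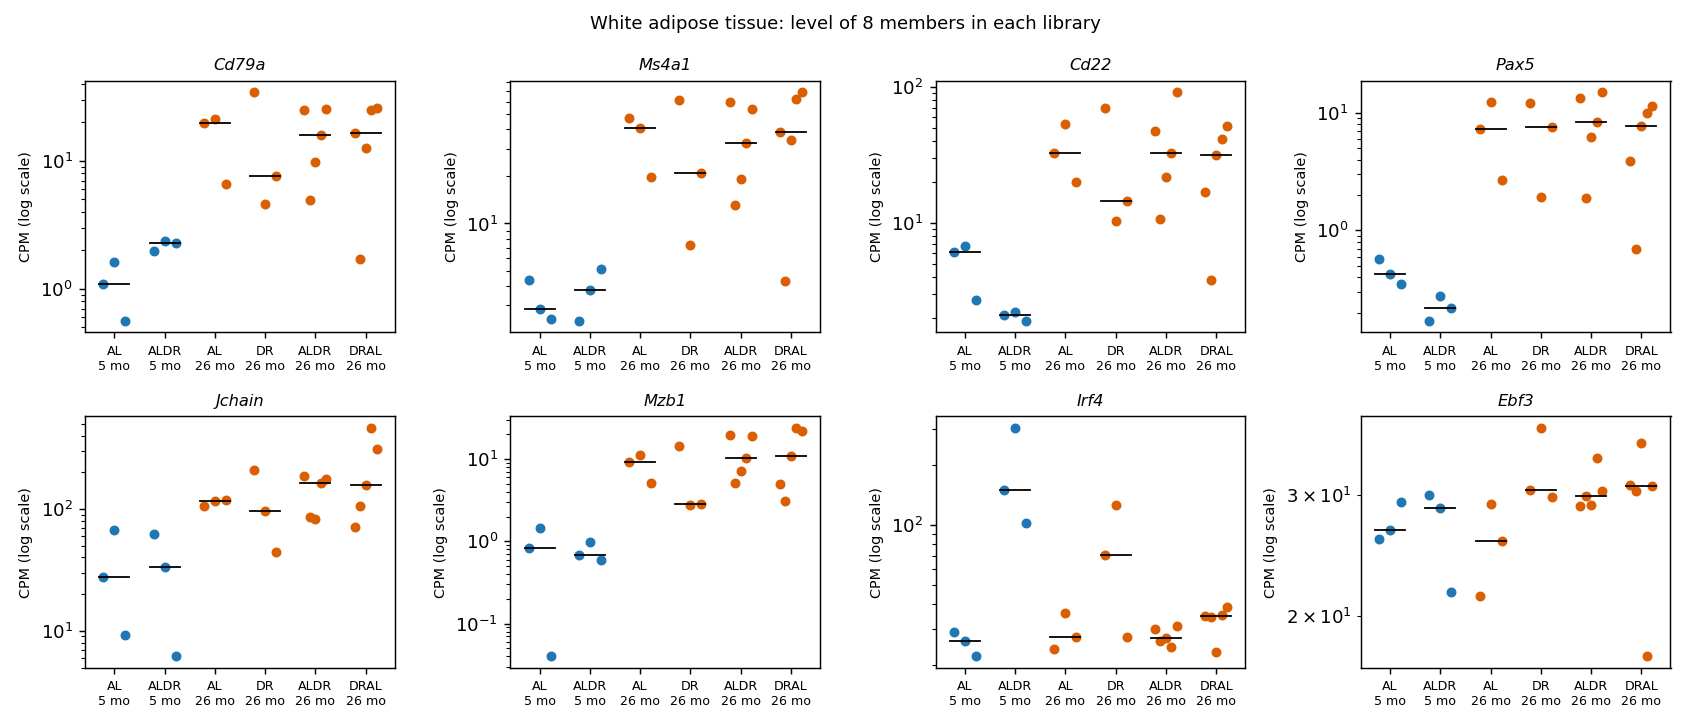
CPM on a log scale of 8 members in each WAT library (points, with values of 0 drawn at 0.04) and the group median (bars), by diet and age, with 5-month libraries in blue and 26-month libraries in orange. The first 6 panels show higher levels at 26 months, where replicate 2 of DRAL is the lowest old library for Cd79a, at 1.70 CPM. Irf4 is highest in the young restricted libraries, at 102 to 305 CPM, and Ebf3 overlaps between ages.

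In each diet on its own most members were higher in the old group, and fewer passed the test. Irf4 and Ebf3 differed in direction between the diets. The mean of Irf4 was 29.2 CPM in old against 25.8 CPM in young AL, and 74.4 CPM in old DR against 186 CPM in young ALDR, and that of Ebf3 was 25.4 against 27.3 CPM and 32.6 against 26.8 CPM. Between fully fed mice of 26 and 5 months, 3 libraries against 3, 26 of 27 members were higher in the old group, with a median log2 fold change of 2.75 against 0.01 over all genes (2.28 against -0.01 among genes that pass the filter in the young libraries alone). None passed the adjusted threshold with edgeR, where 0.114% of all genes did. At an unadjusted p under 0.05 there were 24 of 27 members, against 19.8% of all genes. DESeq2 called 12, a count given without its own share of all genes, so it is not to be set against the edgeR shares. For 25 members every old AL library exceeded every young one, against 9.93% of all genes, the other members being Ebf3 and Irf4. Of the 22 that pass the filter in the young libraries alone, 19 had such a p, against 20.4% of all genes so filtered, and 20 did not overlap, against 9.31%. The number called was 8 without replicate 3 of the old AL group and 7 without replicate 2 of the young one. Blk came nearest to the threshold, at 3.53 ± 0.74 (adjusted p = 0.0526).

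Between restricted mice, DR at 26 months and ALDR at 5 months, 14 of 27 members were called, 13 higher and 1 (Irf4) lower in the old group, against 8.59% of all genes called and 4.21% called as higher. Age and the time spent on restriction cannot be told apart in this comparison. The median log2 fold change was 2.63 over the members and 0.00 over all genes, and for 17 members every old library exceeded every young one, against 13.7% of all genes. Of the 22 that pass the filter in the young libraries alone, 9 were called higher and 1 lower, against 3.42% of all genes so filtered called as higher, 13 did not overlap, against 12.3%, and the median was 2.08 against -0.03. The smallest adjusted p-values belonged to Tnfrsf13b (log2 2.10 ± 0.42, adjusted p = 0.011), Pax5 (log2 4.95 ± 1.06, adjusted p = 0.0151), Tnfrsf13c (log2 4.43 ± 1.03, adjusted p = 0.0209), Fcmr (log2 3.80 ± 0.92, adjusted p = 0.0222), Cd22 (log2 3.92 ± 0.97, adjusted p = 0.0253) and Blk (log2 2.92 ± 0.73, adjusted p = 0.0257). This count depended on single libraries, on the muscle genes and on the libraries in the fit. A fit on the compared groups alone called none, with a median of 2.63 and 20 of 25 members at an unadjusted p under 0.05. It was 3 without replicate 1 of DR, 2 without replicate 3 of DR, 1, 0 and 2 without young ALDR replicates 1, 2 and 3 in turn, and 16 without replicate 2 of DR. With the muscle score as a covariate it was 0, with a median log2 fold change of 3.10, and without both DR libraries rich in muscle RNA it was 18, which leaves 1 DR library that is assumed to vary like the other groups. The averaged contrast gave 19 members with the muscle covariate and 18 to 25 with any 1 library left out.

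**Figure D3:**
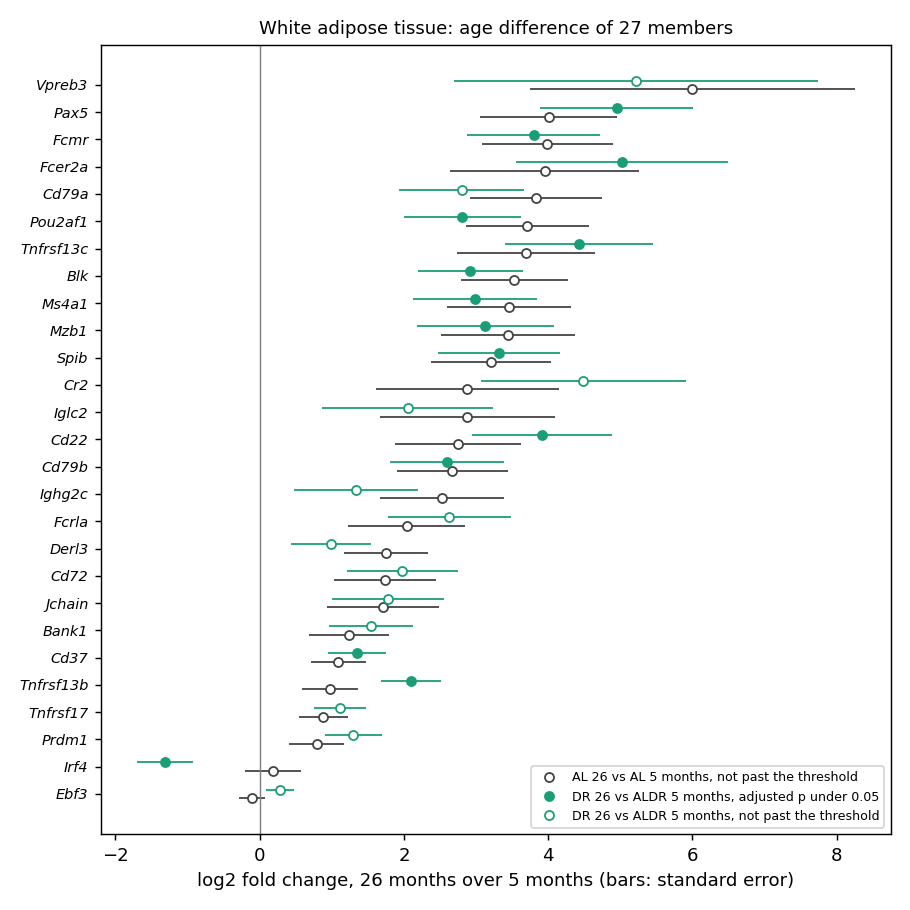
Log2 fold change between 26 and 5 months of the 27 members in WAT (points, with bars of 1 standard error) in fully fed mice (grey) and between DR at 26 and ALDR at 5 months (green), with filled points past an adjusted p of 0.05. In fully fed mice 26 of 27 members lie to the right of 0 and none is filled, while Irf4 is the 1 filled point to the left of 0 in restricted mice.

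Of lists made by hand of other genes of the lineage, all 12 further B-cell genes rose in the averaged WAT contrast, against 8.76% of all genes called as higher. Of these, 10 pass the filter in the young libraries alone, and all 10 rose, against 7.6% of all genes so filtered. Among the 12 were the transcription factor gene Bcl11a at 2.88 ± 0.57 (edgeR adjusted p = 0.00457) and the follicle-homing receptor Cxcr5 at 2.72 ± 0.54 (edgeR adjusted p = 0.00457). Of 9 further plasma-cell genes tested, 2 rose and 1 fell, the last being Xbp1, a factor of the secretory pathway that adipocytes also express (log2 -0.42 ± 0.07, edgeR adjusted p = 0.00254), and 2 of 9 is not shown to exceed the 8.76% of all genes called as higher. None of 4 germinal-centre genes passed the threshold in edgeR, and none had an unadjusted p under 0.05. Of 5 ligands, the lymphotoxin genes Lta (log2 3.6 ± 0.83, adjusted p = 0.00847) and Ltb (log2 2.02 ± 0.53, adjusted p = 0.0153) rose, and Tnfsf13b (BAFF), Tnfsf13 (APRIL) and Cxcl13 did not pass.

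T-cell genes and some lymph-node genes were higher in old WAT as well, and their part in the result was not tested. The 11 T-cell genes with a row summed to 14.6 to 56.1 CPM in the young libraries and to 22.6 to 202 CPM in the old ones, and 6 of the 11 rose in the averaged contrast, in which 8.76% of all genes were called as higher. Of 6 genes of lymph-node stroma and high endothelial venules, 2 rose: the chemokine Ccl19 (log2 2.83 ± 0.80, adjusted p = 0.0211) and the venule mucin Glycam1, which had no reads in the 6 young libraries and 0.0509 to 14.5 CPM in 15 of the 16 old ones. Glycam1 thus passed the filter on low counts only through the old libraries, and its call is a description. The other 4 did not pass: Ccl21a (log2 2.21 ± 1.02, adjusted p = 0.131), Cxcl13 (log2 1.92 ± 1.02, adjusted p = 0.191), Madcam1 (log2 0.37 ± 0.75, adjusted p = 0.768) and the venule sulfotransferase gene Chst4, which pointed the other way (log2 -1.08 ± 0.46, adjusted p = 0.0996). The sum of these 6 genes was 4.41 to 22.4 CPM in young and 2.98 to 145 CPM in old libraries. Replicate 2 of DRAL, lowest of its group for 19 of 27 members, had 0 CPM of Glycam1, 0.0532 CPM of Ccl21a and 0.691 CPM of Ccl19. Replicate 4 of the same group had 126 CPM of Cxcl13, the chemokine of B-cell follicles, and the highest Jchain of all WAT libraries.

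Old libraries varied widely within each diet, and often the same library was highest or lowest for most members. In AL, replicate 2 was highest for 21 of 27 members and replicate 3 lowest for 21. In DR, replicate 1 was highest for 24 members, and in ALDR replicate 2 was lowest for 20. The share of all genes highest or lowest in a library was not computed, so such counts, here and elsewhere, are a description. Replicates 2 and 3 of DR and replicate 2 of ALDR were also the libraries with the most muscle RNA. In the averaged contrast 5 of 6 muscle genes rose with age, against 8.76% of all genes, and beyond the covariate above their part in the members' values was not tested. Compared per kilobase of exon in old AL libraries, mean levels ran from 45.3 CPM per kb for Jchain, 28.0 for Ighg2c, 25.8 for Iglc2 and 23.4 for Cd79b down to 0.547 CPM per kb for Vpreb3.

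Few members passed the threshold between diets in old WAT. Lifelong restriction against full feeding at 26 months called 2 of 27 members, Irf4 higher and Prdm1 lower, where 26% of all genes were called, and the median log2 fold change of the members was -0.16. No member passed for ALDR against AL (4.36% of all genes called), for DRAL against AL (2.17%) or for ALDR against DRAL (12.3%), with 1, 0 and 1 members at an unadjusted p under 0.05 in edgeR and 0 called by DESeq2. ALDR against DR called Irf4 alone (12.8% of all genes) and DRAL against DR called Irf4 alone (30.5%). These counts depended on replicate 1 of DR, the library highest for 24 members: without it 4 members were called for DR against AL (1 higher, 3 lower in DR), 3 for ALDR against DR and 6 for DRAL against DR. The score was 4.34 in that library and 2.28 and 2.56 in DR replicates 2 and 3, against 3.71, 4.04 and 2.87 in AL, so the median above also rested on it. At 5 months, 2 months of restriction changed 3 of 27 members, where 29.2% of all genes were called: Irf4 rose, and Prdm1 and Tnfrsf13b fell. A fit on these 6 libraries alone called 6, adding Cd72 (-1.65 on the log2 scale), Cd22 (-1.35) and Cd37 (-0.82), all lower in restricted mice. A p that misses the threshold does not show that a group did not differ, and the standard errors of the members in these 26-month comparisons had medians of 0.57 to 0.74 on the log2 scale.

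Irf4 differed between diets. It was at 29.2, 26.2 and 22 CPM in AL and 150, 305 and 102 CPM in ALDR at 5 months. At 26 months it was at 23.9, 36.4 and 27.4 CPM in AL, 70.5, 125 and 27.6 CPM in DR, 30.3, 26.3, 27.1, 24.4 and 31.3 CPM in ALDR and 35.2, 34.5, 23, 35.3 and 39 CPM in DRAL. The young restricted libraries were all above the young AL ones, while the old DR group held 2 high libraries and 1 at the level of AL. The log2 fold change was 2.84 ± 0.41 (adjusted p = 8.52e-05) for young restriction and 1.35 ± 0.40 (adjusted p = 0.0168) for lifelong restriction. Late restriction gave -0.07 ± 0.35 (adjusted p = 0.943). The difference of the late from the young response was -2.91 ± 0.53 (adjusted p = 0.0168), the only member past the threshold in this interaction, where 1.34% of all genes were called. The difference of the lifelong from the young response called no member and 0% of all genes with edgeR, with 1 member at an unadjusted p under 0.05 and 0 called by DESeq2. Against old DR, Irf4 was lower in ALDR (log2 -1.42 ± 0.34, adjusted p = 0.0111) and in DRAL (log2 -1.16 ± 0.34, adjusted p = 0.0154). These 3 comparisons share the DR libraries and rested on replicate 2 of DR, which also had 3850 CPM of muscle genes. Without it Irf4 differed by 0.75 on the log2 scale for DR against AL (adjusted p = 0.173), by -0.82 for ALDR against DR (adjusted p = 0.149) and by -0.55 for DRAL against DR (adjusted p = 0.26). Without replicate 1 or 3 of AL the first of them also missed the threshold, with adjusted p = 0.0656 and 0.0548. With the muscle score as a covariate all 3 missed it, as they did in a fit on the compared groups alone. Without replicate 2 of young ALDR, at 305 CPM, the interaction was -2.35 (adjusted p = 0.067).

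Prdm1 and Tnfrsf13b fell with restriction in young WAT. Prdm1, which encodes the plasma-cell regulator BLIMP1 and is also found in T and myeloid cells, was at 4.46, 6.95 and 4.56 CPM in AL and 2.81, 1.26 and 1.32 CPM in ALDR at 5 months, without overlap, a difference of -1.57 ± 0.40 (adjusted p = 0.00666). At 26 months Prdm1 was at 8.2, 11.8 and 7.53 CPM in AL, 7.3, 3.41 and 2.47 CPM in DR, 7.34, 3.46, 6.79, 7.09 and 8.56 CPM in ALDR and 5.03, 7.02, 5.69, 5.17 and 7.94 CPM in DRAL. DR was below AL in all 3 libraries, a difference of -1.06 ± 0.38 (adjusted p = 0.0459). This call was lost when any 1 of the 3 AL libraries or of DR replicates 2 and 3 was left out, with log2 fold changes of -0.78 to -1.19 and adjusted p = 0.0531 to 0.189. Prdm1 also missed the threshold with the muscle score as a covariate (-0.68, adjusted p = 0.292), in a fit on the compared groups alone (-1.08, adjusted p = 0.121) and without the filter on low counts (-1.06, adjusted p = 0.0571). Tnfrsf13b was at 10.0, 7.31 and 6.53 CPM in AL and 3.15, 2.1 and 2.06 CPM in ALDR at 5 months, again without overlap (log2 -1.71 ± 0.42, adjusted p = 0.00496). At 26 months it was at 14.8, 18.1 and 14.3 CPM in AL and 16.4, 5.5 and 9.45 CPM in DR, where the groups overlapped. Of the 12 further B-cell genes, 3 fell with lifelong restriction, a share near the 26% of all genes called in this comparison: Cd180 (log2 -1.77 ± 0.39, adjusted p = 0.00249), Blnk (log2 -1.29 ± 0.32, adjusted p = 0.00672) and Btk (log2 -0.78 ± 0.28, adjusted p = 0.0442), all of which macrophages express too. The 8 macrophage genes summed to 2700 to 4410 CPM in AL and to 724 to 1110 CPM in DR at 26 months, and to 2280 to 3520 CPM in AL and 1390 to 1860 CPM in ALDR at 5 months, and their part in these falls was not tested.

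In BAT most members were near the detection limit in young mice and higher in most old ones. Cd79a was at 0, 0.263 and 0 CPM in AL and 0.624, 0.183 and 0.45 CPM in ALDR at 5 months. It was at 1.17, 14 and 0.706 CPM in AL, 2.58, 1.79 and 3.11 CPM in DR, 1.5, 5.07, 1.33, 1.76 and 2.95 CPM in ALDR and 31.4, 1.43 and 0.337 CPM in DRAL at 26 months. Replicate 2 of AL and replicate 1 of DRAL were far above every other library, and 1 DRAL library lay within the young range. This pair stood above all 12 other old libraries in 21 of 23 members tested, the exceptions being Ebf3 and Irf4. The pair was picked on the members' own values, and the share of all genes was not computed, so this count is a description. Ms4a1 was at 9.52 and 20.6 CPM in this pair and at 0.0674 to 3.26 CPM in the other old libraries. Jchain was at 108 and 146 CPM in the pair and at 5.73 to 32.5 CPM elsewhere among the old. The 11 T-cell genes summed to 42.6 and 78.6 CPM in these libraries and to 2.78 to 17.1 CPM in the other 18, and each of the 11 was highest in its group there. Ccl19 was at 1.65 and 3.63 CPM in them and at most 0.262 CPM in any other BAT library, whereas Glycam1 was at 0.190 and 0.253 CPM in them, at 3950 CPM in the library with epithelial and milk genes and at 0 to 2.83 CPM in the other 17. Of the other lymph-node genes listed, Chst4 and Madcam1 were at 0 in the pair, and Ccl21a (10.6 and 11.5 CPM) and Cxcl13 (3.74 and 4.22 CPM) were no higher there than in the highest young libraries (13.5 and 4.52 CPM). All 6 summed to 16.2 and 19.6 CPM in the pair and, without the library with milk genes, to 2.92 to 14.1 CPM in the other 17. The part of lymph-node tissue in these values was not tested.

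**Figure D4:**
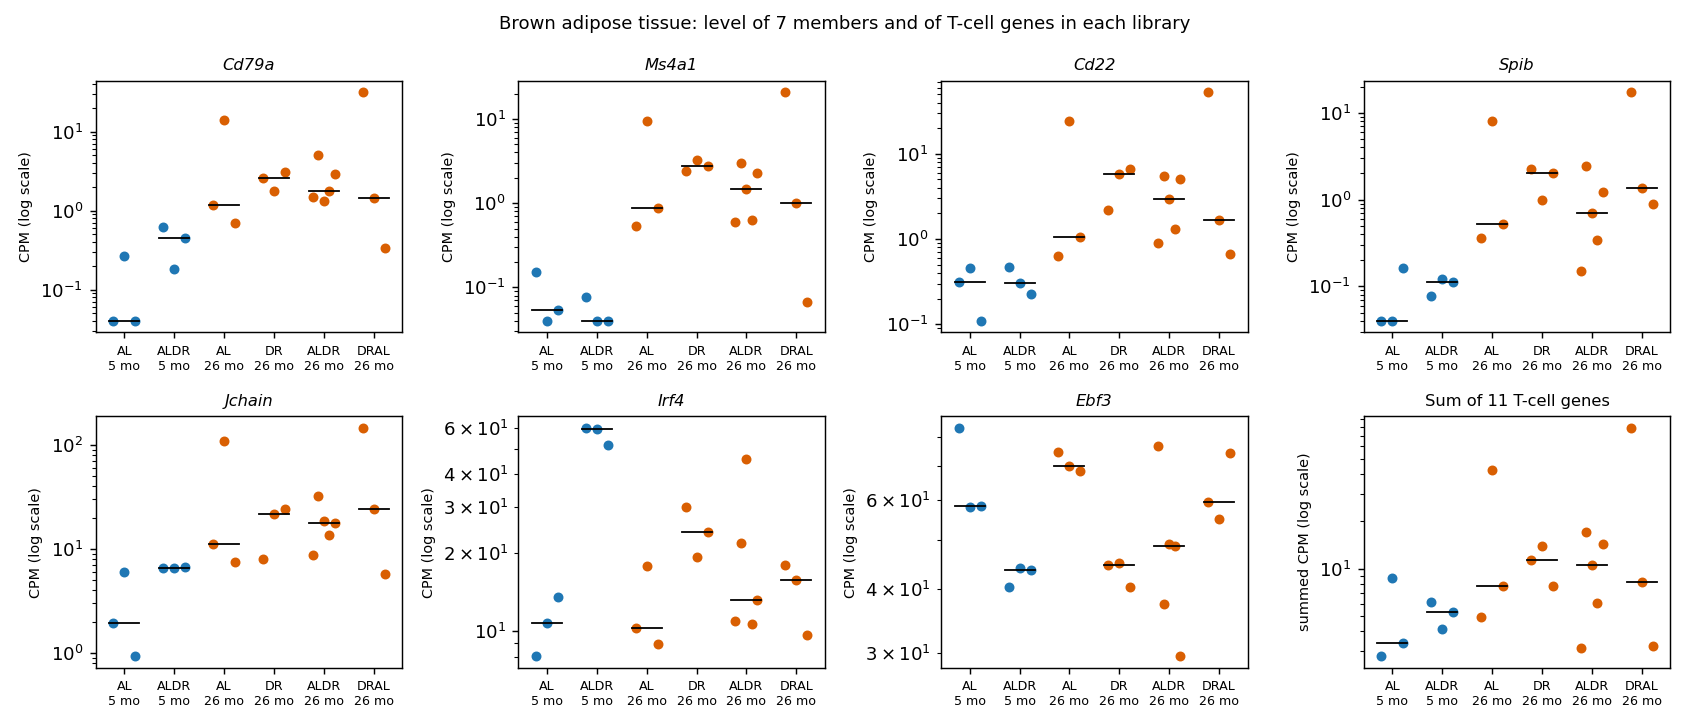
CPM on a log scale of 7 members and of the sum of 11 T-cell genes in each BAT library (points, with values of 0 drawn at 0.04) and the group median (bars), with 5-month libraries in blue and 26-month libraries in orange. One old AL and one old DRAL library stand above the rest for Cd79a (14 and 31.4 CPM) and for the T-cell genes, but not for Irf4 or Ebf3.

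With ages averaged over AL and restricted groups, 3 of 23 members rose in BAT and none fell, against 1.1% of all genes called and 0.708% called as higher. DESeq2 called 15 and a fit on the compared groups alone 10 of 20, all higher in old mice, both given without their share of all genes. The 3 members of the main edgeR fit were Pou2af1 (log2 5.91 ± 1.21, adjusted p = 0.0276), Ms4a1 (log2 6.09 ± 1.32, adjusted p = 0.0344) and Spib (log2 4.69 ± 1.10, adjusted p = 0.0487), and 22 of 23 members had a positive difference. Young BAT held at most 0.154 CPM of Ms4a1, 0.112 CPM of Pou2af1 and 0.164 CPM of Spib, and no reads of Blk or Pax5 in any of 6 libraries, so such fitted changes are no bounds. These 3 genes passed the filter on low counts through the old libraries, where they reached 20.6, 13.7 and 17.1 CPM, so the calls are given as a description and support nothing about the members as a whole. Without the pair of libraries that stood apart, 6 members were called, the 6 being the 3 above and Cd22, Cd79a and Blk. Cd22, Cd79a and Blk also passed the filter only through the old libraries, with at most 7, 8 and 0 counts in any young one. The pair was picked on the members' own values, so this count too is a description, given without its share of all genes. With any 1 of the 12 libraries left out there were 0 to 2 calls. Of the 23 members, 8 pass the filter in the young libraries alone, and none of these 8 was called, against 0.682% of all genes so filtered called as higher, while 6 had an unadjusted p under 0.05 in edgeR, against 13.7%. The median log2 fold change was 1.49 over these 8 and 0.00 over all genes so filtered, with the pair included. Over all 23 it was 3.88, and 2.57 without the pair of libraries, values that rest on fitted changes from few or no young counts. The score of the 8 was 1.45 to 4.49 in the 14 old and 1.03 to 1.96 in the 6 young libraries, with overlap. It was 4.04 and 4.49 in the pair and at most 2.75 in the other old libraries. None of the 8 was higher in all 14 old libraries than in all 6 young ones. Cd22 and Pou2af1 were, but young BAT held at most 7 and 2 counts of them.

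Within diets, no BAT member passed between AL mice of 26 and 5 months (0.0795% of all genes called), where 20 of 23 had an unadjusted p under 0.05 in edgeR, against 10.3% of all genes, DESeq2 called 11, and 15 did not overlap with the old above the young, against 7.7% of all genes. Most of these members had few or no counts in young BAT and entered through the old libraries, so the counts are a description. Of the 8 that pass the filter in the young libraries alone, 5 had such a p, against 9.89% of all genes so filtered, and 3 did not overlap, against 7.3%. Without the pair of libraries, 10 members had an unadjusted p under 0.05 and the median log2 fold change over all 23 was 1.68 in place of 4.89. With the pair and over the 8 members alone it was 1.85. The score over these 8 was 1.92, 4.04 and 2.09 in old AL and 1.03, 1.89 and 1.32 in young AL, where the 4.04 is replicate 2, of the pair. The median over the 8 without the pair was not computed. Between DR at 26 months and ALDR at 5 months, none was called (0.202% of all genes), 10 had an unadjusted p under 0.05 against 11.5% of all genes, DESeq2 called 4, and 17 did not overlap with the old above the young, against 12.3% of all genes. Of those 8 members, 1 had an unadjusted p under 0.05 (Irf4), against 11.5% of all genes so filtered, and 5 did not overlap, against 12.3%. Neither of the libraries that stood apart belongs to this comparison, in which the score over the 8 members was 2.22, 2.34 and 2.63 in the old and 1.76, 1.69 and 1.96 in the young libraries. Over all 23 it was 1.20, 1.29 and 1.60 and -0.56, -0.63 and -0.34, a description since 15 of the 23 entered through the old libraries, as did Ms4a1 and Cd22. Ms4a1 was at 2.44, 3.26 and 2.75 CPM in DR at 26 months and 0.078, 0 and 0 CPM in ALDR at 5 months. Cd22 was at 2.22, 5.87 and 6.71 and 0.468, 0.306 and 0.225 CPM in the same groups, and Jchain at 8.03, 21.8 and 24.3 and 6.63, 6.6 and 6.69 CPM. All 3 genes were higher in each old DR library than in each young one.

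Diet changed 1 member in BAT. Irf4 rose with restriction at 5 months, from 8.03, 10.8 and 13.5 CPM in AL to 60.0, 59.3 and 51.4 CPM in ALDR (log2 2.39 ± 0.46, adjusted p = 0.00264), where 14.4% of all genes were called. With any 1 of the 6 libraries left out, Irf4 stayed past the threshold, with log2 fold changes of 2.22 to 2.59. At 26 months it was at 10.3, 17.8 and 8.94 CPM in AL, 29.8, 19.2 and 24 CPM in DR, 11, 21.8, 45.8, 10.7 and 13.2 CPM in ALDR and 18, 15.7 and 9.71 CPM in DRAL. The old DR libraries were above the old AL ones without overlap, by 0.99 ± 0.45 (adjusted p = 0.167), which did not pass. No member was called at 26 months for DR against AL (11.5% of all genes called), ALDR against AL (1.3%), ALDR against DR (5.21%), DRAL against DR (8.4%), DRAL against AL (0%) or ALDR against DRAL (2.02%), nor in the interactions of lifelong (0%) and late restriction (0.0144%) with the young response. In the order given, edgeR had 2, 2, 0, 1, 0, 8, 2 and 2 members at an unadjusted p under 0.05, and DESeq2 called 1, 1, 0, 0, 0, 0, 0 and 1. The DESeq2 calls were Ebf3, lower in DR than in AL by 0.72 on the log2 scale (adjusted p = 0.0271), and Ighg2c in both comparisons of late restriction. Ebf3 was at 74.5, 69.9 and 68.6 CPM in AL and 44.6, 45 and 40.4 CPM in DR at 26 months, without overlap (log2 -0.71 ± 0.24, adjusted p = 0.0595 in edgeR).

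The direction of the BAT members across old diets turned with the pair of libraries that stood apart, in comparisons that share groups. Since the pair was picked on the members' own values, medians and calls without it follow from that choice and are a description. The share of all genes called without the pair is not given here. The median log2 fold change of the 23 members was -0.82 for DR against AL with all libraries and 1.32 without the pair, when Cd22 alone was called (2.50, adjusted p = 0.0496). For ALDR against AL the median was -1.07 with them and 1.03 without, for DRAL against DR 1.48 and -1.11, and for ALDR against DRAL -1.77 and 0.78. Without replicate 1 of ALDR alone, 1 member was called in ALDR against AL and 1 in ALDR against DRAL, both lower in ALDR. No member was called by edgeR in these last 3 comparisons with or without the pair, with 3, 4 and 0 at an unadjusted p under 0.05 in edgeR without it. The lowest old BAT library, replicate 3 of DRAL, was lowest of its group for 21 of 23 members, at a score of -0.52.

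Liver had only the switched groups at 26 months. None of 13 members was called between ALDR and DRAL with edgeR or DESeq2, where 23.8% of all genes were called, and 1 (Cd79b) had an unadjusted p under 0.05. Cd79b was at 2.83, 2.87 and 1.47 CPM in ALDR and 1.54, 0.73 and 1.68 CPM in DRAL, with overlap, and Ms4a1 at 11.1, 6.06 and 2.67 and 4.82, 1.46 and 4.15 CPM. Pax5, Cd79a, Mzb1 and Ighg2c were among the 14 members with a row that the filter left out, and Cd79a reached at most 0.539 CPM. The score was 1.11, 0.52 and 0.43 in ALDR and 0.67, -0.10 and 0.48 in DRAL. Of 6 further plasma-cell genes tested, 4 were lower in ALDR: Creld2 (log2 -1.19 ± 0.11, adjusted p = 0.000186), Sdc1 (log2 -0.89 ± 0.15, adjusted p = 0.00258), Xbp1 (log2 -0.65 ± 0.12, adjusted p = 0.00421) and Fkbp11 (log2 -1.09 ± 0.23, adjusted p = 0.00739), genes of protein secretion and of the cell surface that hepatocytes express as well. Cxcl13 was higher in ALDR (log2 3.53 ± 1.00, adjusted p = 0.029). In 4 of the 6 liver libraries, 11 to 20 counts fell on Y-linked genes although all mice were female, against at most 2 counts in any WAT library and 0 in BAT.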

How the data were processed

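RNA from WAT, BAT and liver was sequenced in 48 libraries of 14 groups, which the labels describe as biological replicates. The values are read counts per Ensembl gene, deposited by the authors as 3 tables, and all of their columns were used. Per the submitters' processing notes, Trim Galore 0.3.7, TopHat2 2.0.14 and DESeq2 were used with build GRCm38. The counting program, its annotation and its handling of reads that fit several genes are not given in the sources used here. Of 25913 identifiers, 25012 matched a symbol in GENCODE M21.

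The quasi-likelihood test of edgeR 4.0.16 (R 4.3.3) was run on each table (filterByExpr, TMM scaling, all groups of a tissue in one fit), with Benjamini-Hochberg adjustment over all genes tested and a threshold of 0.05. DESeq2 1.42.0 was an alternative, as were another scaling, no filter, a replicate block, a muscle score covariate, a fit on the compared groups alone, each library left out in turn and, added after the data were seen, only the genes that pass the filter in the 5-month libraries, for counts, medians and scores. Most counts of members called under these alternatives are given without the share of all genes called under them. Such counts show only how far the calls moved. The procedure was tested on simulated data. Figures were made with Python 3.11.15, pandas 2.3.3 and matplotlib 3.10.9.

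Named members were Cd79a, Ms4a1, Cd22, Jchain, Mzb1, Derl3, Ebf3, Irf4 and Prdm1, with up to 6 called members per comparison by adjusted p, and Blk, Tnfrsf13b and the remaining genes were named after their values were seen. Of the other lists, up to 4 called genes per comparison were named, and 1 gene is not reported here. The members and lists were chosen with earlier results of these data known. The averaged age contrast, the early B-cell factor motif and the 2 settings that leave out a pair of libraries were added after seeing the data. Immunoglobulin class composition was not analysed here, because most constant-region genes had no values, and no protein sequences were used. Floors of 3 counts cover counting error only, since reads carry no molecular identifiers.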

Additional observations from a re-analysis of the deposited data

Results flagged for a closer look

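In groups of 4 to 10 libraries, a member was set aside for a closer look when its highest or lowest library lay far from the others by Dixon's criterion. This held for 6 of 80 groups tested, and chance gives about 1 in 20. Ighg2c, an IgG constant region, stood highest in replicate 1 of WAT ALDR at 26 months, at 57.0 CPM, and in replicate 2 of BAT ALDR at 26 months, at 6.02 CPM. Iglc2, a lambda constant region, stood highest in replicate 4 of WAT ALDR at 26 months, at 205 CPM. In WAT DRAL at 26 months, replicate 4 was apart for Ebf3, lowest at 17.5 CPM, and for Vpreb3, highest at 1.40 CPM, and it was also the library with the most Jchain and Cxcl13. Irf4 was lowest in replicate 3 of the same group, at 23 CPM.

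The response of Irf4 to restriction differed between ages in WAT by the test of the difference itself. Begun at 24 months instead of 12 weeks, restriction gave a log2 fold change lower by 2.91 (edgeR interaction, difference -2.91 ± 0.53, adjusted p = 0.0168). Without replicate 2 of young ALDR the difference was -2.35, with an adjusted p of 0.067 in edgeR, and did not pass.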

How the results depend on the processing

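The rise of the members with age in WAT kept its direction and 18 to 25 of 27 calls with any 1 library left out, and 19 to 25 under the other settings. Other counts of called members moved as follows. With the muscle covariate, WAT had 0 calls for DR against AL, ALDR against DR, DRAL against DR and old DR against young ALDR, and a fit on the compared groups alone also gave 0 for these 4. That fit gave 6 for young ALDR against AL in WAT, and in BAT 2 for DR against AL, 1 for DRAL against DR, 2 for young ALDR against AL, 8 for old DR against young ALDR and 10 for age averaged. Without a filter, WAT DR against AL had 1 call. DESeq2 called 12 for AL by age in WAT, and in BAT 1 for DR against AL, for ALDR against AL and for the late against the young response, 11 for AL by age, 4 for old DR against young ALDR and 15 for age averaged. Without the pair of BAT libraries that stood apart, which was picked on the members' own values, there were 1 call for DR against AL, 2 for old DR against young ALDR and 6 for age averaged. Age averaged in BAT fell from 3 to 2 calls, losing Spib, without the filter, with the replicate block and with the muscle covariate, and to 0 among the members that pass the filter in the young libraries alone. With any 1 library left out, WAT counts ranged from 0 to 4 for DR against AL, 0 to 3 for ALDR against DR, 0 to 6 for DRAL against DR, 3 to 3 for young ALDR against AL, 0 to 8 for AL by age, 0 to 16 for old DR against young ALDR and 0 to 1 for the late against the young response, and BAT counts from 0 to 1 for ALDR against AL and for ALDR against DRAL and 0 to 2 for age averaged. The cause was not tested.

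Replicate numbers did not pair libraries: the mean correlation of deviations between libraries with the same number was 0.00 in WAT, -0.03 in BAT and -0.19 in liver, so the block is given only here. With the replicate as a block, AL by age in WAT had 6 calls, DR against AL in BAT 1 and young ALDR against AL in BAT 2, the added gene in both being Ebf3. Score differences moved by more than the spread between libraries in 4 comparisons. For young ALDR against AL in WAT the median over members gave 0.32 in place of -0.14 (-0.41 to 0.00 with 1 library left out), and for AL by age in WAT 2.95 in place of 2.31 (2.04 to 2.65). For young ALDR against AL in BAT a prior count of 0.5 gave 0.81 in place of 0.53. For old DR against young ALDR in BAT the difference was 1.87, and it was 0.60 over the 8 members that pass the filter in the young libraries alone, 2.38 as the median, 2.48 with the prior count of 0.5 and 2.20 without Ebf3, Irf4 and Prdm1. Of 39 named member calls, 21 missed the threshold with the muscle covariate, 18 of 38 in the compared groups alone, 6 without the filter, 4 with the block and 24 with the most adverse library left out, and none reversed or was lost with DESeq2 or the other scaling. Members below 3 counts, frequent in young BAT, have no reliable fold change at this depth.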

Other observations

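Of 9 further plasma-cell genes tested, 2 rose and 2 fell with restriction in young WAT (edgeR, 5 months, ALDR against AL, 3 libraries each), where 29.2% of all genes were called, and 2 of 9 fell and none rose with lifelong restriction at 26 months, where 26% of all genes were called. Counts this small beside such shares are given as a description only. Slamf7, a surface receptor of plasma cells, T cells and macrophages, fell by 1.98 on the log2 scale (SE 0.42, adjusted p = 0.0017), and Sdc1, the plasma-cell surface proteoglycan also made by epithelia, fell by 1.07 (SE 0.28, adjusted p = 0.0069). Xbp1 and Txndc5, genes of the secretory pathway in many cell types, rose by 0.67 (SE 0.10, adjusted p = 0.000149) and 0.38 (SE 0.13, adjusted p = 0.0354). With lifelong restriction at 26 months Slamf7 fell by 1.33 (SE 0.39, adjusted p = 0.0172) and Sdc1 by 0.81 (SE 0.28, adjusted p = 0.0355).

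In old BAT, 1 of 9 such genes was called for DR against AL, ALDR against DR and DRAL against DR, where 11.5%, 5.21% and 8.4% of all genes were called. The kinase gene Pim2, which plasma cells and other cells use for survival, was higher in DR than in AL by 1.37 (SE 0.27, adjusted p = 0.00444), and lower in ALDR and in DRAL than in DR, with log2 fold changes of -1.25 (SE 0.23, adjusted p = 0.00641) and -1.02 (SE 0.27, adjusted p = 0.0264). These 3 comparisons share the DR libraries. No member was called by edgeR in any of them.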
